A study of Mus musculus and Rattus norvegicus with 26 samples.

Results

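Contigs of 1000 nt or more were taken from 6 lists of intronic contigs, in which uniquely aligned reads within an intron had been joined into stretches. A contig was a member where its stop position minus its start position was at least 1000, and 5764 of the 112345 contigs of the lists met this rule. The members were thus chosen by their length as measured in these data, on the read positions of each list. They were 717 of 26445 contigs in mouse dendrites, 590 of 12931 in mouse somas, 2694 of 42338 in single mouse brown adipose tissue (BAT) cells, 1164 of 16069 in single mouse cardiomyocytes, 249 of 8459 in rat dendrites and 350 of 6103 in rat somas.

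The neuronal RNA came from cultured hippocampal neurons of embryonic day 18 C57BL/6 mice and Sprague-Dawley rats, from which dendrites were dissected mechanically in pools, while somas were collected as cell bodies with their nuclei. The BAT cells came from the interscapular fat of CD-1 mouse embryos of day 17.5. The cardiomyocytes came from day 14.5 C57BL/6 embryos hemizygous for the transgene Fucci mAG-hGem(1/110) under the CMV promoter, and had been flow sorted for its fluorescence and for viability. No group carried a treatment, and all RNA was amplified by 3 rounds of the antisense RNA (aRNA) method. Each list pools the libraries of its group (3 mouse dendrite, 3 mouse soma, 6 BAT, 9 cardiomyocyte, 2 rat dendrite and 3 rat soma libraries by the labels), so no value per library and no replicate error could be given, and differences between lists are described without a test. The labels give more BAT and cardiomyocyte libraries than the study's text gives cells, and the lists do not name the libraries they hold. Intervals in brackets are 95% Wilson intervals and cover counting error only.

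Introns are copied into the primary transcript of a gene and are normally cut out by the spliceosome in the nucleus, between a donor site that begins with GT and an acceptor site that ends with AG. Unspliced or partly spliced RNA of the nucleus therefore carries introns, while RNA that keeps intron sequence outside the nucleus is called intron-retaining. A dissected dendrite holds no nucleus, whereas somas, BAT cells and cardiomyocytes were sequenced with theirs. Introns also hold other sequences, among them copies of messenger RNAs that were inserted into the genome (processed pseudogenes) and runs of adenine to which an oligo(dT) primer can anneal.

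The following sequences show what lay at the edges of members, and within 1 of them. All were read from the mouse genome NCBIM37 (mm9), 5′ to 3′ on the strand of the host gene. In the first set, the longest member of each mouse list with a run of at least 10 adenines in the 300 nt downstream, and still within the intron, is shown from the last 40 bases of the contig to just past that run, which is in capitals.
Fgf14 intron 1, mouse dendrite, chr14:124572394-124572567, minus strand: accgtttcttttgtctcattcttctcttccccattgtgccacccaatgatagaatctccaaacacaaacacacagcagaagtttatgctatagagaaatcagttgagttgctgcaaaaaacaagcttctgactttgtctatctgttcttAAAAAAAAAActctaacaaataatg
B230208H17Rik intron 1, mouse soma, chr2:25459636-25459709, minus strand: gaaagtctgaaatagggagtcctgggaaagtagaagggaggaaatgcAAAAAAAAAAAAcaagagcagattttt
Tmed5 intron 2, BAT cell, chr5:108556310-108556405, minus strand: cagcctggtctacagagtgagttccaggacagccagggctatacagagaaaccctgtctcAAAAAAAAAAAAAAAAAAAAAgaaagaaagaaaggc
Rtn3 intron 3, cardiomyocyte, chr19:7522520-7522595, minus strand: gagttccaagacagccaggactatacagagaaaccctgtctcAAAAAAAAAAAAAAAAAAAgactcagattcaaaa
The run began 109 bases after the last base of the contig in Fgf14, 7 in B230208H17Rik, 20 in Tmed5 and 2 in Rtn3, and was 10, 12, 21 and 19 bases long. These members measured 1920 nt (2565 reads), 2794 nt (287 reads), 2670 nt (889 reads) and 3314 nt (2045 reads).

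The second set shows both ends of introns that a member filled from the first to the last base, with the 15 bases of the flanking exon in capitals. The contigs began and ended where the exons ended and began.
Ucp1 intron 5, 5′ end, chr8:85819234-85819283, plus strand: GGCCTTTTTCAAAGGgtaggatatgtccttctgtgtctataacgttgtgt
Ucp1 intron 5, 3′ end, chr8:85821721-85821770, plus strand: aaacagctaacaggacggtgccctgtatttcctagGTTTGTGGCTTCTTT
Trdn intron 8, 5′ end, chr10:32915917-32915966, plus strand: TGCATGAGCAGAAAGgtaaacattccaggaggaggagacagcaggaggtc
Trdn intron 8, 3′ end, chr10:32919934-32919983, plus strand: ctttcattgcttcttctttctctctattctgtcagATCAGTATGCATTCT
Actn2 intron 8, 5′ end, chr13:12388707-12388756, minus strand: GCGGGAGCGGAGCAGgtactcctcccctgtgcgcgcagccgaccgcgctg
Actn2 intron 8, 3′ end, chr13:12386655-12386704, minus strand: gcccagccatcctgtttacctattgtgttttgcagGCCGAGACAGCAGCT

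The third pair sets 150 bases of a member in intron 30 of Myo3a beside the mitochondrial genome. The intron is read here on the strand opposite to Myo3a, which is the strand of the similarity, and the 4 bases that differ are in capitals.
Myo3a intron 30, chr2:22444005-22444154, minus strand: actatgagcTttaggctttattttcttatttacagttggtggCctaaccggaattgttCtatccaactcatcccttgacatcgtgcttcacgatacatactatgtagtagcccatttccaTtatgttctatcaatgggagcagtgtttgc
Mitochondrial genome, chrM:6341-6490, plus strand: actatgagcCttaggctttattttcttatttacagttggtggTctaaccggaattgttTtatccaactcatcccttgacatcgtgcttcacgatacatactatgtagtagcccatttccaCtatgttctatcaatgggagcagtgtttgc

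The length of the members was set by the rule and is given as a description. Long contigs made up 2.71% [2.52, 2.91] of the contigs in mouse dendrites, 4.56% [4.22, 4.94] in mouse somas, 6.36% [6.13, 6.60] in BAT cells, 7.24% [6.85, 7.65] in cardiomyocytes, 2.94% [2.60, 3.33] in rat dendrites and 5.73% [5.18, 6.35] in rat somas. Most members lay just above the limit: their median length was 1182 nt in mouse dendrites, 1219 nt in mouse somas, 1269 nt in BAT cells, 1263.5 nt in cardiomyocytes, 1182 nt in rat dendrites and 1229 nt in rat somas, and between 71.9% (BAT cells) and 85.5% (rat dendrites) were shorter than 1500 nt. Contigs of 2000 nt or more numbered 22, 37, 241, 123, 9 and 26 in the same order, and contigs of 3000 nt or more 1, 7, 34, 17, 0 and 2. Closest to the limit, Aarsd1 intron 11 of mouse dendrites measured 1000 nt with 46 reads and Ddx6 intron 2 measured 999 nt with 238 reads. In BAT cells 68 contigs measured 1000 to 1009 nt and another 68 measured 990 to 999 nt. In mouse dendrites these counts were 30 and 24, so the limit did not fall at a step in the lengths of either list.

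**Figure D1:**
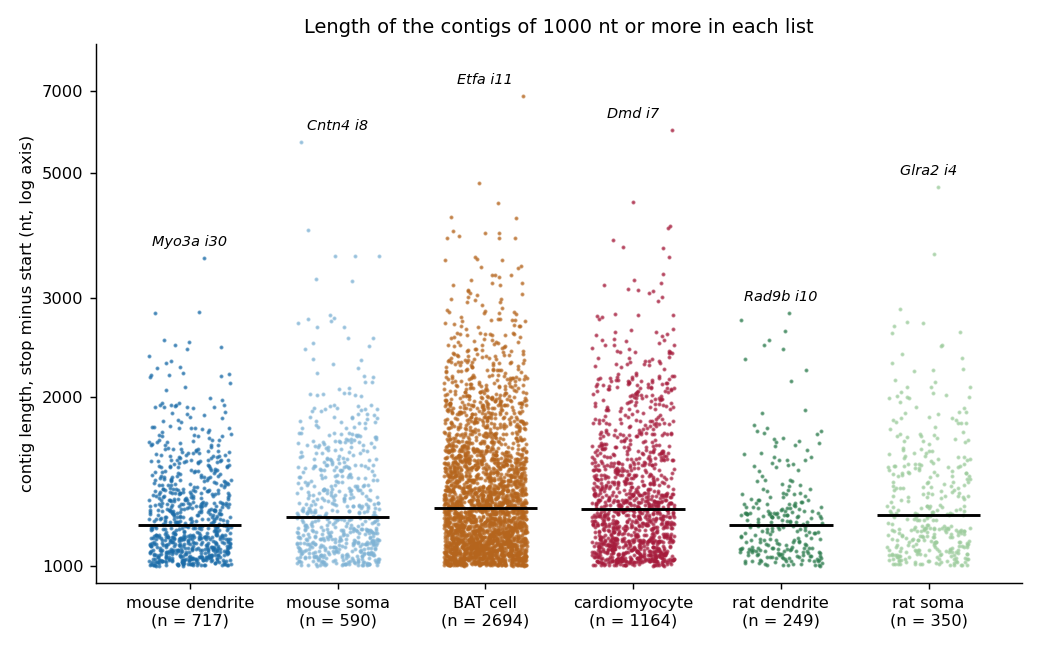
Length of every contig of 1000 nt or more (y axis, stop minus start in nt, log scale) in the 6 lists (x axis), with a point for each contig, a line at the median and the host gene and intron of the longest contig. The medians lie between 1182 and 1269 nt, and the longest contigs run from 2817 nt in rat dendrites to 6856 nt in BAT cells.

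In mouse dendrites, the longest contig lay in intron 30 of Myo3a, which encodes an unconventional myosin (3535 nt, 1481 reads, chr2:22442805-22446340). It was followed by Stxbp5l intron 7 (2835 nt), in a gene of the tomosyn family of vesicle release, and by Zfat intron 11 (2821 nt), in a zinc finger gene. The intron of Stxbp5l held 20 reads in all over those 2835 nt, which shows how few reads could span a contig, since reads up to 500 bp apart had been joined. The same Stxbp5l intron held contigs of at most 454 nt in BAT cells (80 reads) and 88 nt in cardiomyocytes (1 read). By contrast, Zfat intron 11 was long in mouse somas as well (1050 nt, 783 reads) and short in BAT cells (256 nt, 422 reads).

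In mouse somas, the longest contig lay in Cntn4. This gene, a contactin of neuronal adhesion, held 5691 nt in intron 8 (1578 reads, chr6:106398495-106404186), while the contigs of that intron reached only 272 nt in mouse dendrites (266 reads) and 426 nt in BAT cells (996 reads). Rims1, which encodes a scaffold of the presynaptic active zone, held 3956 nt in intron 2 (14024 reads) and 10 members in all. Its intron 2 gave at most 691 nt in dendrites (230 reads) and 660 nt in BAT cells (116 reads). Acap2, a GTPase-activating protein for Arf6, held 3568 nt in its last intron (3931 reads).

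In BAT cells, the 3 longest contigs each filled a whole intron. Etfa, the alpha subunit of the electron transfer flavoprotein that takes electrons from fatty acid oxidation, held 6856 nt in its last intron, intron 11 (7970 reads). The longest contig of that intron measured 2793 nt in cardiomyocytes (2108 reads), 708 nt in mouse dendrites (23 reads) and 413 nt in mouse somas (46 reads). Ndufb6, a subunit of respiratory complex I, held 4797 nt in intron 2 (1296 reads), and Slc36a2, an amino acid transporter, held 4429 nt in intron 7 (6865 reads) and was listed for that intron in no other list.

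In cardiomyocytes, the longest contig lay in intron 7 of Dmd, which encodes dystrophin (5969 nt, 28045 reads, chrX:80828215-80834184). The same intron held contigs of at most 292 nt in mouse dendrites, 890 nt in mouse somas and 952 nt in BAT cells. Mib1, a ubiquitin ligase of Notch signalling, followed with 4447 nt in intron 12 (15150 reads), and Trdn, which encodes the triadin of the calcium release complex, with 4036 nt in intron 8 (144061 reads). The Trdn contig filled its intron in cardiomyocytes, whereas the contigs of that intron reached 915 nt in BAT cells (458 reads), 922 nt in mouse dendrites (409 reads) and 397 nt in mouse somas (80 reads).

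The Mib1 contig of cardiomyocytes covered the 87 nt of Mir133a-1, the precursor of a microRNA known from heart and skeletal muscle, which lies in that intron on the opposite strand. A contig of 1249 nt in BAT cells (1521 reads) covered it as well, and contigs of the same intron in mouse somas and dendrites were at most 278 nt and 318 nt long. The libraries did not record the strand, so reads of Mib1 and of the antisense microRNA transcript cannot be told apart. The lists thus still hold members over annotated small RNAs, as they do in Eif5 intron 6 (Snora28), Eny2 intron 3 (U6) and Ss18 intron 5 (U1).

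In rat dendrites, the longest contigs lay in Rad9b intron 10 (2817 nt, 235 reads), Prdx2 intron 5 (2743 nt, 2411 reads) and RGD1311678 intron 17 (2622 nt, 71641 reads). In rat somas, they lay in Glra2 intron 4 (4726 nt, 114 reads), Nrxn3 intron 21 (3592 nt, 8021 reads) and Ube3a intron 4 (2866 nt, 8681 reads). Glra2 encodes a glycine receptor subunit, Nrxn3 a presynaptic neurexin, and Ube3a, an imprinted gene, a ubiquitin ligase. As for Mib1, the strand of these reads was not recorded.

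Reads were deposited as 1 number per intron, not per contig, so they are described here for the introns that held a member. The median was 276 reads in 696 introns of mouse dendrites, 310.5 in 548 of mouse somas, 855.5 in 2536 of BAT cells, 2457 in 1067 of cardiomyocytes, 293 in 244 of rat dendrites and 833.5 in 332 of rat somas. Over all introns of the same lists it was 24, 22, 29, 53, 14 and 24. A contig grows with the reads that build it, so this difference is a description of the rule and not independent of it. The introns with a member were 3.57% of the introns in mouse dendrites and took 16.1% of the intronic reads. They were 5.19% in mouse somas with 28.9% of the reads, 8.45% in BAT cells with 49.0%, 8.17% in cardiomyocytes with 46.9%, 3.29% in rat dendrites with 20.5% and 6.25% in rat somas with 33.9%.

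**Figure D2:**
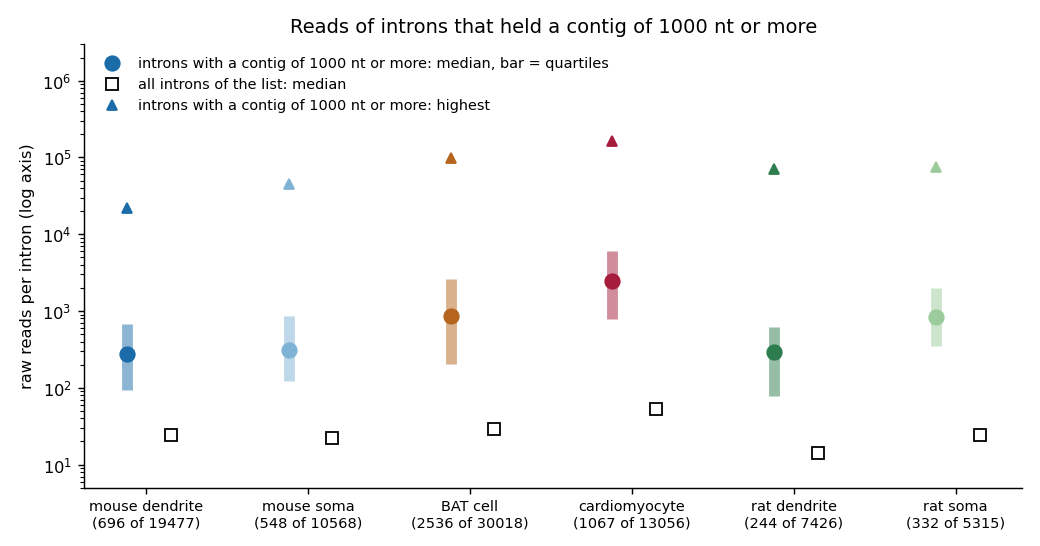
Raw reads per intron (y axis, log scale) in the 6 lists, with the number of introns that held a contig of 1000 nt or more out of all introns under each name. Filled circles are medians of those introns, bars their quartiles, triangles their highest value, and open squares the median over all introns. The medians of introns with a long contig run from 276 to 2457 reads and those of all introns from 14 to 53.

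Many reads did not by themselves give a long contig. Among introns with at least 1024 reads, 20.3% held a member in mouse dendrites, 32.6% in mouse somas, 41.8% in BAT cells, 32.5% in cardiomyocytes, 17.6% in rat dendrites and 31.0% in rat somas. Below 32 reads, 0.523%, 0.578%, 0.886%, 0.174%, 0.758% and 0.356% did. Of the 100 introns with the most reads, 30 held a member in mouse dendrites and 78 in cardiomyocytes.

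In mouse dendrites, the introns with a member that drew the most reads were Haus6 intron 8 (22090 reads, 1124 nt), in a subunit of the augmin complex of the spindle, Acads intron 2 (10380 reads, 1703 nt), in a short-chain acyl-CoA dehydrogenase, and Commd1 intron 2 (9815 reads, 1913 nt and 1367 nt). Haus6 intron 8 had only 2 reads in mouse somas and 324 in BAT cells, where its contig was 1029 nt long. In mouse somas they were Gad1 intron 10 (45674 reads, 1290 nt), in the glutamate decarboxylase that makes GABA, Gria4 intron 5 (24913 reads, 1568 nt), in an AMPA receptor subunit, and Plxdc2 intron 13 (17484 reads, 1782 nt and 1151 nt). Gad1 intron 10 was otherwise listed only in rat somas, with 173 reads and a contig of 933 nt.

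In BAT cells, Ptprr intron 13 had 98533 reads with a contig of 1036 nt, Tmem170b intron 1 had 95000 reads with 1437 nt, and Ctnna3 intron 2 had 90978 reads with contigs of 1907 nt and 1007 nt. In cardiomyocytes, Dmd intron 1 had 163979 reads, Trdn intron 8 had 144061, and Pitpna intron 3 had 129219 with a contig of 1307 nt. Pitpna encodes a phosphatidylinositol transfer protein, and its contig is described again with the regions shared by all mouse lists. In rat dendrites, RGD1311678 intron 17 had 71641 reads and Tpm1 intron 7 had 12950. In rat somas, RGD1311678 intron 17 had 75845 reads, Gab2 intron 3 had 19787 and Fyn intron 5 had 19190, where Gab2 is a signalling adaptor and Fyn a Src family kinase.

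A few transcripts held many members. Dmd held 25 in cardiomyocytes, spread over 8 introns and 48184 nt, of which 12 lay in intron 1 and measured 1056 to 4004 nt. The 33 contigs of that intron in cardiomyocytes compared with 26 in BAT cells (longest 2425 nt, 12396 reads), 12 in mouse dendrites (longest 1084 nt, 1673 reads) and 6 in mouse somas (longest 1597 nt, 565 reads). Cacnb2, the beta subunit of voltage-gated calcium channels, held 11 members in cardiomyocytes in 2 introns, of which that of 2299 nt matched the predicted gene Gm17386 over 735 nt at 97.1% and that of 2052 nt matched Nhp2l1 over 653 nt at 96.3%. Erbb4, a neuregulin receptor, held 9 in 4 introns in cardiomyocytes. In BAT cells Etfa held 9 (26248 nt in 5 introns), and Sfi1 and Hadha held 8 each, where Hadha encodes a subunit of the mitochondrial trifunctional protein. In mouse somas Reln, the secreted signal of neuronal layering, held 10 members in 7 introns, Cntn5 held 9 in 5 introns, and a single Rims1 transcript 8 in 5 introns. In mouse dendrites Sfi1, whose product binds centrin, held 12 members in 8 introns with up to 5017 reads, Lrp1b held 5 and Cntnap5c held 4. In rat somas Ube3a held 11 members in 5 introns, Opcml 5 and Nrxn3 4, and in rat dendrites Cdc42bpa and Ncam1 held 3 each.

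Most host genes held 1 member, namely 592 of 644 in mouse dendrites, 417 of 476 in mouse somas, 1439 of 1936 in BAT cells, 687 of 856 in cardiomyocytes, 227 of 237 in rat dendrites and 278 of 303 in rat somas. The introns spanned the whole range of positions, from intron 1 to intron 99 in mouse dendrites and to intron 167 in cardiomyocytes, with medians of 5 to 6.5. Intron 1 was the site for 12.9% [10.6, 15.6] of introns with a member in mouse dendrites, beside 9.0% of all introns of the list. It was 8.76% [6.67, 11.4] beside 8.89% in mouse somas, 11.5% [10.3, 12.8] beside 8.3% in BAT cells, 10.1% [8.45, 12.1] beside 7.88% in cardiomyocytes, 13.1% [9.45, 17.9] beside 10.8% in rat dendrites and 9.04% [6.40, 12.6] beside 9.52% in rat somas. The share thus lay above that of all introns in mouse dendrites, BAT cells and cardiomyocytes, and within the counting error in the other lists. Long introns held members more often in each mouse list, as given below, and the part of intron length in the intron 1 shares was not tested. Among contigs of 2000 nt or more, intron 1 was 1 of 22 introns in mouse dendrites (4.55% [0.807, 21.8]), 3 of 37 in mouse somas (8.11% [2.80, 21.3]), 23 of 239 in BAT cells (9.62% [6.50, 14.0]), 15 of 115 in cardiomyocytes (13.0% [8.07, 20.4]), 0 of 9 in rat dendrites (0.0% [0.0, 29.9]) and 2 of 24 in rat somas (8.33% [2.32, 25.8]). At that limit the interval lay above the share of all introns in cardiomyocytes and held it in the other lists.

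Mouse contigs were matched to the introns of the GENCODE annotation of the same build, and an intron was found for 717 of 717, 589 of 590, 2692 of 2694 and 1164 of 1164 members. Where several introns on the strand held the whole contig, the listed gene symbol came first, then the listed intron number, then the shortest intron. The matched intron can thus be shorter than that of the listed transcript. Host introns of members were long, with medians of 8202 nt in dendrites, 7170 nt in somas, 5348 nt in BAT cells and 5293 nt in cardiomyocytes, beside 5796, 4758, 4090 and 3366 nt for shorter contigs. Introns shorter than the limit could hold no member, so part of this difference follows from the rule. Among introns of at least 50000 nt, 16.4%, 14.5%, 31.8% and 21.7% held a member, beside 1.74%, 3.2%, 8.62% and 8.36% of introns shorter than 2000 nt that could hold a member. The members covered a median of 15.4%, 17.5%, 25.5% and 25% of their intron.

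A member filled its intron from the first to the last base in 6 cases in mouse dendrites (0.837% [0.384, 1.81]) and 7 in mouse somas (1.19% [0.577, 2.43]), but in 375 in BAT cells (13.9% [12.7, 15.3]) and 124 in cardiomyocytes (10.7% [9.01, 12.6]). Over all contigs of the lists the shares were 0.591% [0.505, 0.691], 1.77% [1.55, 2.01], 7.84% [7.59, 8.10] and 8.22% [7.81, 8.66]. In introns shorter than 2000 nt that could hold a member, an intron was filled in 6 of 3226 cases in dendrites (0.186%), 7 of 1718 in somas (0.407%), 312 of 5569 in BAT cells (5.6%) and 103 of 2344 in cardiomyocytes (4.39%). The median reads of these introns were 16, 14, 22 and 58, and the part of read number in the contrast was not tested. Cell type, embryonic day, the way of collecting the cells, for BAT cells also the strain, and the number of reads differed together between the neuronal lists and the others and cannot be told apart.

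**Figure D3:**
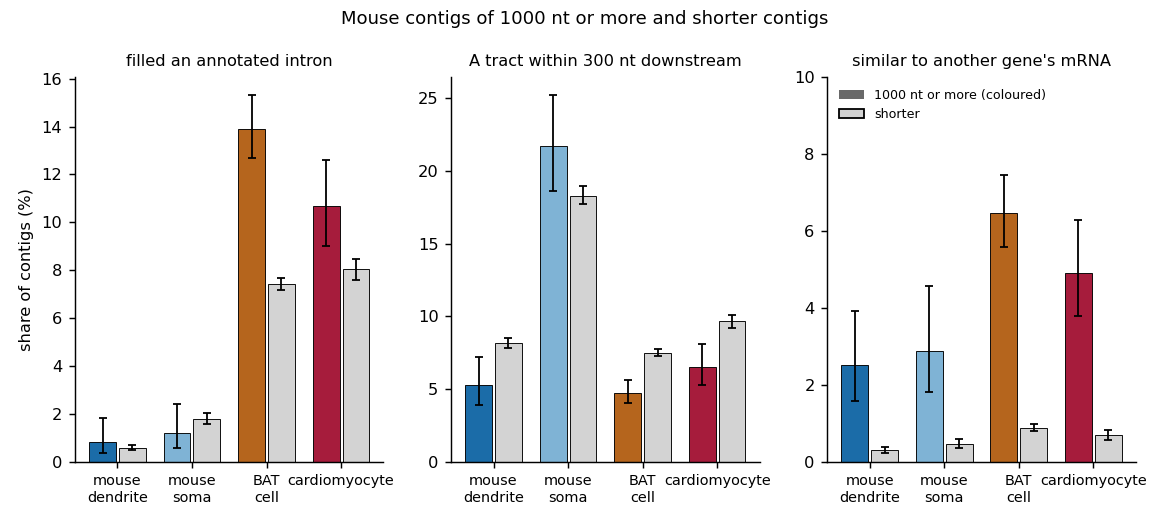
Share of mouse contigs (y axis, %) that filled an annotated intron (left), had a run of at least 10 adenines in the 300 nt downstream (middle) or were similar to a coding transcript of another gene (right), for contigs of 1000 nt or more (coloured) and shorter contigs (grey) in the 4 mouse lists, with 95% Wilson intervals. The filled share reaches 13.9% in BAT cells and 0.837% in dendrites, the adenine share 21.7% in somas, and the similarity share is higher for the long contigs in each list.

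The filled introns of cardiomyocytes with the most reads were, beside Trdn, Nexn intron 4 (3105 nt, 108275 reads), in an actin-binding protein of the Z-disc, Ryr2 intron 81 (1506 nt, 29463 reads), in the calcium release channel of the sarcoplasmic reticulum, and Phf20l1 intron 13 (1173 nt, 26139 reads), in a chromatin reader. Nexn intron 4 and Ryr2 intron 81 were listed in no other list. Actn2, the alpha-actinin of the Z-disc, was filled in intron 8 (2071 nt, 15872 reads), where BAT cells had 175 nt and 30 reads and mouse dendrites 257 nt and 6 reads. Myl2, the ventricular regulatory light chain, was filled in intron 6 (1633 nt, 4538 reads). These last members were chosen after their values were seen.

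In BAT cells the filled introns with the most reads were Tceb1 intron 3 (2206 nt, 34088 reads), in elongin C, Eif5 intron 6 (1132 nt, 18102 reads), in a translation initiation factor, Acat1 intron 10 (1244 nt, 11893 reads), in the mitochondrial acetoacetyl-CoA thiolase, and Sfi1 intron 3 (1102 nt, 10716 reads). Ucp1, the uncoupling protein that makes brown fat produce heat, was filled in its last intron, intron 5 (2506 nt, 5610 reads, chr8:85819249-85821755). That intron had 396 nt and 899 reads in cardiomyocytes, 294 nt and 64 reads in mouse dendrites, and no contig in mouse somas. Fabp4, the fatty acid binding protein of adipocytes, was filled in intron 1 (2315 nt, 4386 reads), beside 377 nt and 282 reads in mouse dendrites. Etfa was filled in introns 8, 10 and 11.

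Some introns filled in neurons were filled in the other cells as well. Akr1a4 intron 8 (1091 nt), 2700029M09Rik intron 7 (1615 nt), Gnb2l1 intron 6 (1247 nt), Brp44 intron 4 (1323 nt), Chchd2 intron 3 (1031 nt) and Suclg1 intron 8 (1291 nt) were each filled in 3 of the 4 mouse lists. Their ends were therefore identical. Their reads ran from 209 in mouse dendrites to 1214 in BAT cells for Akr1a4, and from 253 in mouse somas to 4250 in BAT cells for Suclg1, a subunit of succinyl-CoA ligase. For Akr1a4 the annotation gives an exon of another transcript of the gene over the whole intron. It also gives an exon of the host gene over 678 nt of the Gnb2l1 intron and over 265 nt of the 2700029M09Rik intron. The filled introns of Brp44, Chchd2 and Suclg1 touched no annotated exon. In all, 366 introns were filled by a member in 1 mouse list, 64 in 2 and 6 in 3.

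Filled introns were often the last of the matched transcript, namely 136 of 375 in BAT cells (36.3%), 56 of 124 in cardiomyocytes (45.2%), 5 of 7 in mouse somas and 2 of 6 in mouse dendrites. Over all contigs of the lists, the last intron held 13.7% in BAT cells, 16.7% in cardiomyocytes, 13.8% in mouse somas and 11.3% in mouse dendrites. Shorter contigs that filled an intron also lay in the last intron in 31.0% and 42.7% of cases in BAT cells and cardiomyocytes. Some matched transcripts were shorter annotated forms of their gene, which end earlier. By the transcript with the most introns, 119 of 375 (31.7%) and 47 of 124 (37.9%) of the filled introns were the last in BAT cells and cardiomyocytes, beside 10.3% and 13.0% over all contigs, and 25.8% and 35.8% of the shorter contigs that filled an intron.

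Members touched an annotated exon of any transcript by at least 1 nt in 8.37% [6.56, 10.6] of cases in mouse dendrites, 14.2% [11.6, 17.3] in mouse somas, 14.1% [12.8, 15.4] in BAT cells and 15.6% [13.7, 17.8] in cardiomyocytes, beside 5.04%, 9.61%, 7.54% and 11.4% over all contigs. A longer stretch has more chances to touch an exon. Exons of the host gene itself, from other transcripts, accounted for 40, 61, 294 and 128 members (5.58%, 10.3%, 10.9% and 11%, beside 4.06%, 8.07%, 6.25% and 9.59% of shorter contigs). Pseudogene exons were touched by 10, 11, 48 and 30 members (1.39%, 1.86%, 1.78% and 2.58%, beside 0.333%, 0.549%, 0.265% and 0.629% over all contigs). Exons on the opposite strand were touched by 17, 23, 64 and 39 members (2.37%, 3.9%, 2.38% and 3.35%, beside 0.749%, 1.16%, 0.834% and 1.43% over all contigs).

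A run of at least 10 adenines lay in the 300 nt downstream of 5.30% [3.89, 7.19] of members in mouse dendrites, 21.7% [18.6, 25.2] in mouse somas, 4.75% [4.01, 5.62] in BAT cells and 6.53% [5.25, 8.10] in cardiomyocytes. Over all contigs these shares were 8.08%, 18.5%, 7.34% and 9.42%. Soma members thus stood above those of the other mouse lists, as did the shorter soma contigs, of which 18.3% had such a run. In the other 3 lists the intervals of the members lay below the shares of shorter contigs (8.16%, 7.51% and 9.65%). The window passed the end of the intron for 14.4%, 13.9%, 30.5% and 27.7% of the members matched to an intron. Counted within the intron alone, the shares of these members were 5.16%, 20.9%, 4.16% and 5.76%, beside 7.94%, 17.8%, 7.06% and 8.91% of shorter contigs. On the upstream side, where a run of thymines would mark adenines on the opposite strand, 10.5%, 8.83%, 6.24% and 4.64% of members had a run of at least 10 thymines, beside 12.5%, 11.4%, 8.92% and 7.61% over all contigs.

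Runs inside the members differed between the lists as well. Members of mouse dendrites held 2.58 adenine runs and 4.58 thymine runs per 10000 nt, and those of mouse somas 3.90 and 1.88. In BAT cells the densities were 2.48 and 2.82, and in cardiomyocytes 4.08 and 2.07. Thymine runs were the more frequent kind in dendrites and adenine runs in somas and cardiomyocytes, in members and shorter contigs alike. The mean GC content of members lay between 39.7% (SD 4.59 over 1164 contigs, cardiomyocytes) and 40.5% (SD 4.63 over 2693 contigs, BAT cells), and differed between the mouse lists by less than the spread between contigs.

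Overlap in position with another list of the species was counted from 1 nt upward. It was found for 49.8% [46.1, 53.4] of members in mouse dendrites, 65.1% [61.2, 68.8] in mouse somas, 51.1% [49.2, 53.0] in BAT cells, 65.6% [62.9, 68.3] in cardiomyocytes, 25.7% [20.7, 31.5] in rat dendrites and 25.4% [21.2, 30.2] in rat somas. Over all contigs of the lists it was found for 28.4%, 47.5%, 24.7%, 46.3%, 15.1% and 20.9%. A longer contig has more bases to be overlapped, and the midpoint gives a measure that does not grow with length. It lay in a contig of another list for 24.7% [21.7, 28], 32.7% [29.0, 36.6], 22.0% [20.5, 23.7], 37.7% [35, 40.5], 11.6% [8.23, 16.2] and 9.14% [6.55, 12.6] of members, beside 21.8%, 38.7%, 18.1%, 38.1%, 12.4% and 16.8% over all contigs. Only in BAT cells did the interval lie above the share over all contigs, and in both soma lists it lay below.

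**Figure D4:**
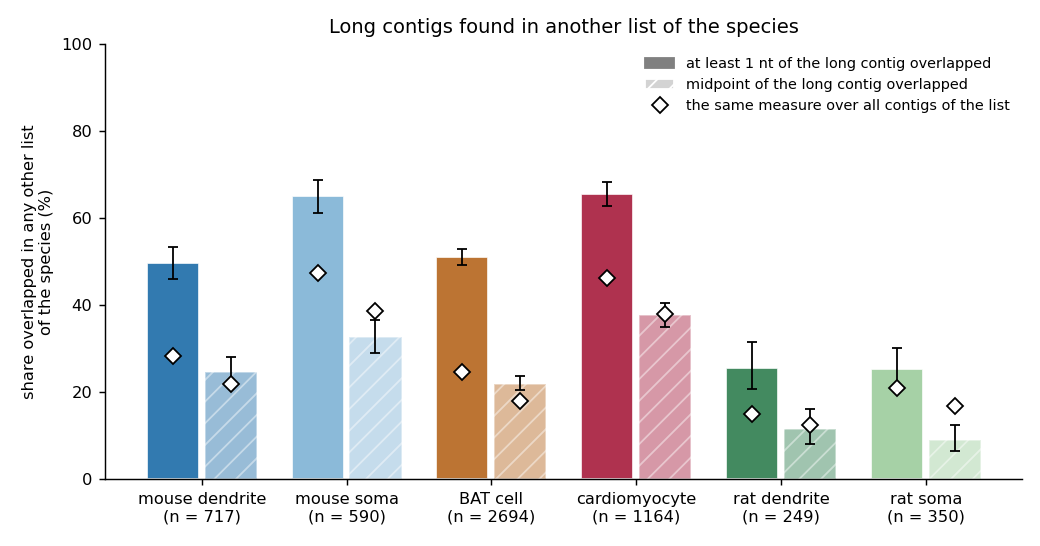
Share of contigs of 1000 nt or more (y axis, %) that were overlapped in any other list of the same species, by at least 1 nt (solid bars) or at their midpoint (hatched bars), with 95% Wilson intervals. Diamonds give the same measure over all contigs of the list. The solid bars stand above the diamonds in each list, from 25.4% in rat somas to 65.6% in cardiomyocytes. The diamonds lie outside the intervals of the hatched bars in mouse somas, BAT cells and rat somas.

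By pairs of lists, which differ in how many contigs they hold, 206 of the 717 dendrite members of mouse (28.7%) were overlapped in mouse somas, beside 11.9% of all dendrite contigs, and 217 (30.3%) in BAT cells, beside 17.0%. In cardiomyocytes 109 (15.2%) were overlapped, beside 8.36%. Of the soma members, 185 of 590 (31.4%) were overlapped in dendrites, beside 24.2% of all soma contigs, 239 (40.5%) in BAT cells, beside 25.6%, and 181 (30.7%) in cardiomyocytes, beside 17.4%. Cardiomyocyte members were overlapped in BAT cells in 594 of 1164 cases (51.0%), beside 35.3%, and in dendrites and somas in 313 (26.9%, beside 13.7%) and 341 (29.3%, beside 13.8%). BAT members were overlapped in cardiomyocytes in 828 of 2694 cases (30.7%), beside 13.3%, in dendrites in 669 (24.8%), beside 10.6%, and in somas in 558 (20.7%), beside 7.74%. By the midpoint, the share of soma members in dendrites was 13.2% [10.7, 16.2] and lay below the 19.3% of all soma contigs, and that of cardiomyocyte members in dendrites was 9.28% beside 9.27%. The intervals lay above the share over all contigs for dendrite members in somas (13.0% [10.7, 15.6] beside 8.98%), for cardiomyocyte members in somas (13.8% [12, 15.9] beside 10%) and for BAT members in each of the other mouse lists (8.31%, 7.02% and 13.1% in dendrites, somas and cardiomyocytes beside 6.84%, 5.32% and 9.85%). For the remaining mouse pairs they held it. The partner was itself a member for 34 dendrite members in somas (4.74%) and for 237 cardiomyocyte members in BAT cells (20.4%). In the rat, 64 of 249 dendrite members were overlapped in somas and 89 of 350 soma members in dendrites, and 16 of each by a member.

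The same transcript and intron was listed in another list of the species for 82.1% of dendrite members, 89.3% of soma members, 76.8% of BAT members and 86.9% of cardiomyocyte members of mouse, and for 41.0% and 46.0% of the rat dendrite and soma members. The matching shares over all contigs were 69.4%, 78.9%, 60.8%, 76.8%, 27.9% and 38.6%.

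The ends were compared where 2 lists held members at the same position. Joining overlapping members gave 4742 mouse regions, of which 4367 held members of 1 list, 340 of 2, 26 of 3 and 9 of 4. Both ends were identical in 67 of the 340 regions and in 6 of the 26, the latter being the 6 filled introns named above. Contigs that fill the same intron have the same ends by definition, and 64 introns were filled by a member in 2 mouse lists. How many of the other identical ends were those of filled introns was not counted. Between BAT cells and cardiomyocytes, both ends were identical in 68 of 237 pairs of members (28.7%), and the median distance was 147 nt at the 5′ end and 32 nt at the 3′ end. Between mouse dendrites and somas it was 2 of 34 pairs (5.88%), with medians of 158.5 nt and 125.5 nt. Overlapping pairs of shorter contigs had identical ends in 2.67% of cases between dendrites and somas and in 20.4% between BAT cells and cardiomyocytes. The distance between the ends of overlapping contigs is bounded by their length, and for the shorter pairs its medians were 64 nt and 38 nt between dendrites and somas, and 45 nt and 12 nt between BAT cells and cardiomyocytes.

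The 9 mouse regions with a member in all 4 lists lay in Myo3a, Wdr70, Fbxo3, Cdc37l1, Tcf12, Stag1, Pitpna, 2310008H04Rik and Cacna2d1. The Myo3a members measured 3535 nt in dendrites (1481 reads), 3558 nt in somas (467 reads), 3867 nt in BAT cells (25841 reads) and 3678 nt in cardiomyocytes (52869 reads), and shared 3409 nt. Those in Wdr70 intron 3 measured 1296 nt (554 reads), 1361 nt (1236 reads), 2004 nt (7989 reads) and 1227 nt (4722 reads) in the same order. Those in Fbxo3 intron 10, in an F-box gene, measured 1102, 1936, 2079 and 1073 nt, and those in Cdc37l1 intron 6, in a gene related to the Hsp90 co-chaperone Cdc37, 1068, 1883, 1456 and 1301 nt. Both the Fbxo3 and the Cdc37l1 members touched an annotated exon of another transcript of the host gene, by 1030 to 1546 nt in Fbxo3 and by 580 to 1466 nt in Cdc37l1.

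**Figure D5:**
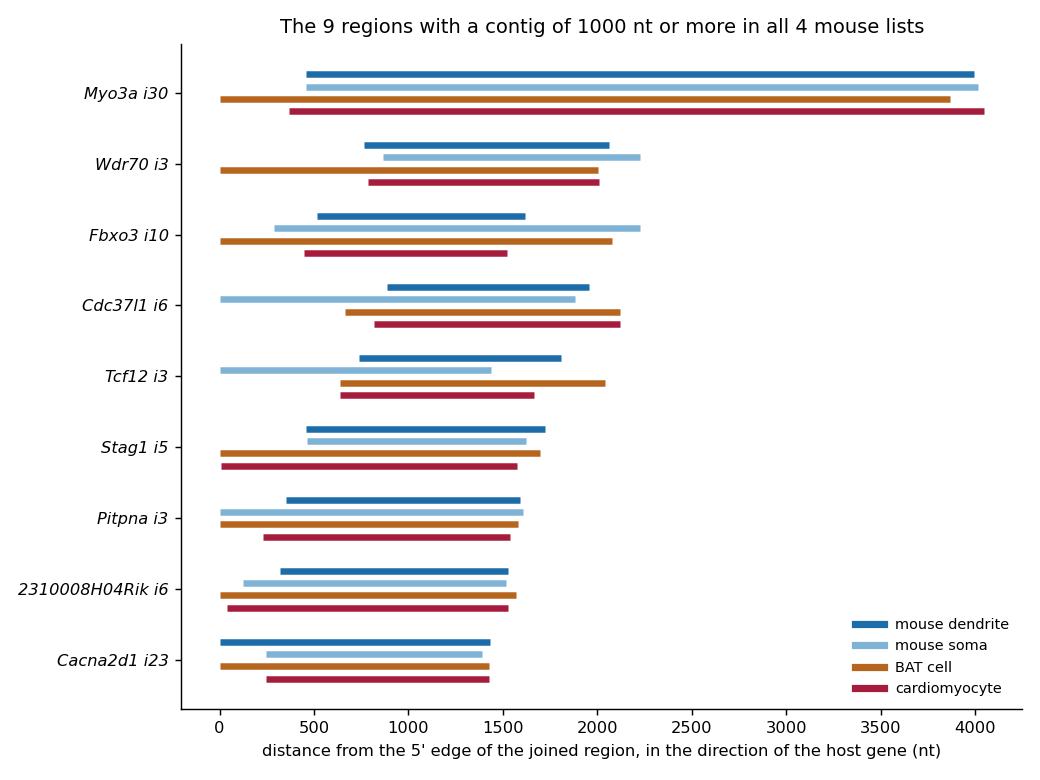
The 9 regions with a contig of 1000 nt or more in all 4 mouse lists. Each bar is a contig, drawn from the 5′ edge of the joined region in the direction of the host gene (x axis, nt) and coloured by list. The 4 contigs share between 697 nt (Tcf12) and 3409 nt (Myo3a), and in none of the regions do all 4 share both ends.

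Of these 9 regions, 6 held sequence that is also found elsewhere. The Myo3a members matched the mitochondrial genome over 3260 nt at 97.4% identity, including the gene mt-Co1 of cytochrome c oxidase, and all 4 held the same match. The Tcf12 members lay over the annotated Rpl15-ps2 and matched the coding transcript of Rpl15, a ribosomal protein, over 338 to 706 nt at 98.7% to 99.1%. The Stag1 members matched Wac over 922 nt at 98.4%, the Pitpna members Cox7c over 403 nt at 99.8%, the 2310008H04Rik members Cycs (cytochrome c) over 951 nt at 97.1% and the Cacna2d1 members 2610507B11Rik over 436 nt at 96.6%. Only the members in Wdr70, Fbxo3 and Cdc37l1 had no such match. A read of the other gene could have been placed in these introns where the copies differ little, so the reads of these 6 regions are uncertain as values of their host genes.

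Such matches were searched over all mouse contigs, as alignments of at least 300 nt at 95% identity or more with a coding transcript of another gene. They were found for 2.51% [1.59, 3.93] of members in mouse dendrites, 2.89% [1.81, 4.57] in mouse somas, 6.46% [5.59, 7.45] in BAT cells and 4.9% [3.8, 6.29] in cardiomyocytes, beside 0.359%, 0.565%, 1.24% and 0.996% over all contigs, and the shorter contigs often lacked the 300 nt that a match needed. In all 266 members in 177 host genes had a match, and 116 of them matched 1 gene only. The predicted genes Gm17386 and Gm17492 were the best match of 37 members in 30 host genes and of 30 members in 25. Among matches to a single gene, a member in Slc24a2 intron 2 matched Cdh2 over 1161 nt at 99.3% in mouse somas (246 reads) and over 1487 nt at 99.5% in cardiomyocytes (13659 reads). Cdh2, the N-cadherin of neurons and heart muscle, itself held 7 members in cardiomyocytes. A member in Mbd5 intron 15 of BAT cells matched Ap2m1, an adaptor subunit of clathrin coats, over 1828 nt at 99.7% (148 reads). Of the 266 members with a match, 219 (82.3%) were overlapped in another mouse list, beside 55.8% of all mouse members.

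In the rat, 16 regions of 583 held members of both lists, and sequence was not analysed there. In Frmd3 intron 12 the members measured 2436 nt in dendrites (5764 reads) and 2220 nt in somas (8983 reads), and in Rad9b intron 10 they measured 2817 nt (235 reads) and 1461 nt (291 reads). In RGD1311678 intron 17 they measured 2622 nt and 2712 nt with like reads (71641 and 75845), and ended at the same base. In Usp9x intron 14, in an X-linked deubiquitinase, they measured 1056 nt (954 reads) and 2471 nt (2041 reads), and in Cpsf3l intron 4 1893 nt (163 reads) and 2340 nt (483 reads). Identical ends were found in Ube3a intron 12 (1009 nt, 17 and 246 reads) and Ndufa1 intron 1 (1070 nt, 528 and 151 reads).

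Host genes were also compared by symbol between the species. Of 495 symbols with a member in the rat, 192 (38.8%) had a member in a mouse list, which is 6.58% of the 2919 symbols of mouse. Of the 495, 418 were listed in the mouse at all, and 45.9% of these had a member there, beside 31.2% of the 4493 symbols listed in both species. Psip1, a chromatin-binding transcriptional coactivator, held members in all 6 lists. They lay in intron 10 in mouse dendrites (1037 nt, 2337 reads), mouse somas (1840 nt, 4479 reads) and cardiomyocytes (1461 nt, 14025 reads), in intron 3 in BAT cells (1129 nt, 138 reads), and in intron 9 in rat dendrites (1329 nt, 1307 reads) and rat somas (1568 nt, 7804 reads). Camk2d, Stag1, Myo9a, Ubn2, Btbd7, Ndufa1, Cdc37l1, Vps13b and Zmym4 held members in 5 lists. Ndufa1, a small subunit of complex I, was filled in intron 1 with 1024 nt in mouse dendrites (382 reads) and BAT cells (4644 reads), and the longest contig of that intron measured 511 nt in cardiomyocytes and 429 nt in mouse somas.

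Genes known from neurons were examined as lists, given beside the share of all listed genes that held a member (7.48% in mouse dendrites, 8.07% in mouse somas, 18.9% in BAT cells, 13.8% in cardiomyocytes, 5.28% in rat dendrites and 8.93% in rat somas). Of 25 glutamate receptor genes, 6 of 18 listed in mouse somas held a member (33.3%), as did 2 of 20 in mouse dendrites, 4 of 16 in BAT cells, 0 of 9 in cardiomyocytes, 2 of 10 in rat dendrites and 3 of 13 in rat somas. Grin1, the obligatory NMDA receptor subunit, held 1842 nt in intron 8 in mouse somas (606 reads) and 1090 nt in intron 8 in rat somas (287 reads). In the dendrites of both species the longest contig of that intron was 210 nt (mouse, 11 reads) and 225 nt (rat, 2 reads). Grm5 held 3 members in mouse somas, the longest of 1867 nt, and Gria4 4 in BAT cells, the longest of 1777 nt in an intron with 5499 reads. Another Gria4 member of that intron, of 1126 nt, matched the predicted gene Gm17386 over 735 nt at 99.7%.

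Synaptic adhesion genes held members in 8 of 17 listed genes in mouse somas (47.1%), 9 of 20 in rat somas, 8 of 25 in mouse dendrites, 2 of 20 in rat dendrites, 9 of 26 in BAT cells (34.6%) and 2 of 13 in cardiomyocytes (15.4%). Scaffolds and release genes held them in 7 of 21 in mouse somas, 5 of 21 in mouse dendrites, 5 of 15 in rat somas, 1 of 10 in rat dendrites, 6 of 21 in BAT cells and 4 of 13 in cardiomyocytes. Snap25, a SNARE protein of vesicle fusion, held 2726 nt in intron 6 in mouse somas (1295 reads) and 1464 nt in rat somas (932 reads), beside 704 nt in mouse dendrites (34 reads) and 203 nt in BAT cells (6 reads). Many of these genes have long introns, which held members more often in each mouse list, and the part of intron length in these shares was not tested. A gene with more contigs also has more chances to hold a member. Counted by contig, synaptic adhesion genes held 11 members in 332 contigs in mouse dendrites, 17 in 185 in mouse somas and 18 in 336 in BAT cells. Over all contigs of these lists the shares were 2.71%, 4.56% and 6.36%.

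GABA receptor genes held members in 3 of 13 listed genes in mouse somas, 1 of 12 in mouse dendrites, 3 of 11 in BAT cells and 1 of 5 in each of cardiomyocytes and rat dendrites, and in 1 of 7 in rat somas. The cardiomyocyte count and 1 of the 3 in BAT cells rest on Gabrb1, whose member matched Rpl5 over 998 nt at 95.4% in cardiomyocytes and over 838 nt at 95.7% in BAT cells, so its reads are uncertain as values of Gabrb1. Voltage-gated channel genes held them in 5 of 21 in mouse dendrites, 3 of 21 in mouse somas, 6 of 22 in BAT cells, 3 of 12 in cardiomyocytes, 0 of 12 in rat dendrites and 3 of 12 in rat somas. Of these, 1 gene in mouse dendrites (Cacna2d1) and 2 in mouse somas (Cacna2d1 and Cacnb2) held no member without a match to another gene. Cacna1c, the pore of the cardiac L-type calcium channel, held 2793 nt in intron 10 in cardiomyocytes (18104 reads) and 1797 nt in intron 9 in rat somas (2118 reads). Axon guidance genes held members in 7 of 26, 6 of 21, 8 of 27 and 6 of 21 listed genes in mouse dendrites, mouse somas, BAT cells and cardiomyocytes, and in 3 of 16 and 0 of 14 in rat dendrites and somas, where Sema3d in cardiomyocytes held a member similar to Rps6 and no other. Cadherins and protocadherins held them in 2 of 16, 1 of 13, 5 of 15, 2 of 12, 0 of 7 and 0 of 5 in the order of the lists given at the start.

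Genes of the sarcomere and of cardiac calcium handling held members in 15 of the 19 listed in cardiomyocytes (78.9%), beside 13.8% of all listed genes. In the other lists it was 8 of 16 in BAT cells (50.0%), 1 of 13 in mouse dendrites, 1 of 10 in mouse somas, 1 of 7 in rat dendrites and 1 of 4 in rat somas. The gene in mouse somas was Cacnb2, whose member matched Nhp2l1 over 1161 nt at 96.0%. In cardiomyocytes they amounted to 53 contigs. Nebl, the cardiac nebulette, held 7 with up to 3084 nt in intron 4 (80964 reads), Ryr2 held 7, Actn2 held 6, Slc8a1, the sodium-calcium exchanger, held 5 with up to 2585 nt (19633 reads), and Ttn, the giant titin, held 3. Ryr2 intron 7 held a member of 2261 nt in BAT cells as well (1338 reads), beside 1815 nt in cardiomyocytes (345 reads). Dystrophin and its complex held members in 3 of 9 listed genes in cardiomyocytes, 6 of 10 in BAT cells, 4 of 10 in mouse dendrites, 3 of 8 in mouse somas, 0 of 6 in rat dendrites and 1 of 5 in rat somas. A single Dmd transcript held 102 contigs of any length in cardiomyocytes. The part of the number of contigs per gene in these shares was not tested.

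Brown fat and lipid genes held members in 11 of 21 listed in BAT cells (52.4%), beside 18.9% of all listed genes, and in 1 of 12 in cardiomyocytes, 2 of 13 in mouse dendrites, 0 of 9 in mouse somas, 1 of 8 in rat dendrites and 0 of 6 in rat somas. Pparg, the nuclear receptor that drives adipocyte formation, held 4 members in BAT cells, with 1521 reads and a contig of 2733 nt in intron 4. Its intron 5 gave a contig of 2436 nt and 49886 reads. Its introns 4 and 5 reached 190 nt (2 reads) and 647 nt (52 reads) in mouse dendrites. Acaca, the acetyl-CoA carboxylase of fatty acid synthesis, also held 4, with up to 2584 nt (1240 reads). Large genes known from fragile sites held members in 8 of 17 listed in mouse dendrites (47.1%, beside 7.48% of all listed genes), 6 of 16 in mouse somas, 9 of 18 in BAT cells, 3 of 14 in cardiomyocytes, 1 of 9 in rat dendrites and 3 of 9 in rat somas. These genes were grouped as large genes, and the part of intron length and of the number of contigs per gene in their shares was not tested. RNA-binding and splicing genes held members in 5 of 18, 6 of 18, 10 of 18, 7 of 17, 0 of 10 and 0 of 9 in the order of the lists, where the member of Fmr1 in BAT cells was similar to Dffa. Qk, the quaking splicing regulator, was among them in all 4 mouse lists, with up to 1705 nt in dendrites (intron 3), 1232 nt in somas (intron 1), 3918 nt in BAT cells (intron 1) and 2018 nt in cardiomyocytes (intron 3).

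Markers of the labelled cell types were listed in those cells and in others too. The mouse lists held 8607 genes in dendrites, 5895 in somas, 10220 in BAT cells and 6205 in cardiomyocytes. The rat lists held 4485 in dendrites and 3393 in somas. Of these genes, 7.48%, 8.07%, 18.9%, 13.8%, 5.28% and 8.93% held a member in the same order. The share of all genes of the genome that were listed was not computed. Of 8 cardiomyocyte markers, 8 were listed with a contig of some length in cardiomyocytes, 6 in mouse dendrites, 5 in BAT cells, 4 in mouse somas and 1 in each rat list. They held a member in 7 cases in cardiomyocytes (26 contigs), 3 in BAT cells (Nebl, Ryr2 and Ttn, 6 contigs) and 1 in mouse dendrites (Nebl, 1121 nt, 829 reads). Of 8 brown fat markers, 7 were listed in BAT cells, 5 in mouse dendrites (Cidea, Ebf2, Fabp4, Pparg and Ucp1), 3 in cardiomyocytes, 2 in each soma list and 1 in rat dendrites. A member was held by 6 of them in BAT cells and by 0 in the other lists.

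Of 10 neuronal markers, 9 were listed in mouse somas, 8 in mouse dendrites, 8 in BAT cells, 3 in cardiomyocytes, 4 in rat dendrites and 6 in rat somas. The 8 of BAT cells were the 8 of mouse dendrites, and Map2 was listed in none of the 6 lists. They held a member in 1 gene in mouse dendrites, 3 in mouse somas, 2 in BAT cells (Dlg2 and Syt1), 1 in cardiomyocytes (Dlg2), 2 in rat dendrites and 3 in rat somas. Of 8 genes that mark glia, 6 were listed in mouse dendrites, 3 in mouse somas, 4 in BAT cells, 0 in cardiomyocytes, 1 in rat dendrites and 2 in rat somas. Slc1a3, which marks astrocytes, held a member of 1001 nt in rat dendrites (40 reads), and no other glial marker held one. Contigs of neuronal and cardiac genes in BAT cells and of brown fat genes in dendrites go against the labels if read as expression of the host gene, and their part in the results was not tested. Since the lists pool the libraries, more libraries with reads of a gene and more of its reads per library cannot be told apart.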

How the data were processed

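The authors aligned 50 bp paired-end reads of 26 libraries to mm9 and rn4, kept uniquely aligned intronic reads and joined reads up to 500 bp apart into contigs. Their methods also state filters on predicted genes, poly(A) sites, noncoding RNAs and junction reads, but some deposited contigs lie over annotated small RNAs. They deposited 1 list for each group, pooled over libraries, with raw read counts per intron that are repeated on each contig of the intron. In somas, BAT cells and cardiomyocytes, contigs over 400 nt were not retained by the authors for their own counts, so the members of those lists were outside them.

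Tables were handled in pandas 2.3.3 and numpy 2.4.6 under Python 3.11.15. Starts count from 0 and stops are the last base counted from 0, so positions are given with 1 added. Each count was taken 1 time per transcript and intron. Overlaps were found with bedtools 2.31.1, sequences were read with pysam 0.24.0 from NCBIM37, and similarity was searched with blastn 2.17.0 (at least 300 nt, at least 95% identity). The overlap and interval steps were tested on simulated data. Figures were drawn with matplotlib 3.10.9.

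The members, gene lists and rules for named genes were chosen with earlier results of these data known. Named were, for each list, the hosts of the 3 longest contigs, of the 3 introns with the most reads and of the 3 transcripts with the most members, regions long in all mouse or both rat lists, symbols with members in the most lists, and up to 4 genes of each gene list, with those just inside and outside the limit. Filled introns and similar genes were named after their values were seen. Rat sequence and introns were not analysed here. Some items that these rules would name are not reported here.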

Additional observations from a re-analysis of the deposited data

How the results depend on the processing

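Of 102 values recomputed under another setting, 48 moved by less than their interval (or 1.5 times, for counts and reads) and 54 by more. The settings followed by the 48 included counting each interval 1 time, introns with at least 32 reads and exon overlaps of at least 50 nt. Values are given for mouse dendrites, mouse somas, BAT cells, cardiomyocytes, rat dendrites and rat somas in this order. A limit of 1200 nt left 344, 315, 1597, 682, 116 and 187 contigs, and 2000 nt left 22, 37, 241, 123, 9 and 26. At 2000 nt the median reads became 520 in mouse dendrites, 732 in mouse somas, 6793 in cardiomyocytes, 497 in rat dendrites and 1883 in rat somas, and the intron 1 share 4.55% in mouse dendrites, 9.62% in BAT cells, 13.0% in cardiomyocytes and 0.0% in rat dendrites. Introns with no second contig had median reads of 155 in mouse dendrites and 194.5 in mouse somas. The share overlapped in another list became 17.0%, 25.6%, 15.7%, 31.0%, 11.6% and 6.00% where 50% of the contig had to be covered, 11.3%, 20.3%, 11.7%, 24.3%, 6.43% and 4.57% where the partner had to be a member, and 82.1%, 89.3%, 76.8%, 86.9%, 41.0% and 46.0% for the same transcript and intron at any position. By the midpoint, a setting chosen after seeing the data, it was 24.7%, 32.7%, 22.0%, 37.7%, 11.6% and 9.14%. The adenine share became 8.93%, 29.2%, 8.50% and 11.3% with runs of 8, and 7.25% in mouse dendrites, 6.68% in BAT cells and 8.51% in cardiomyocytes within 500 nt. It stayed within its interval in the 4 mouse lists where the window ended with the intron, and so did the share of filled introns, allowing 10 nt at each end, and the share of them in the last intron by the transcript with the most introns (all 3 settings chosen after seeing the data). These settings count fewer contigs or looser and stricter matches, and why single values moved was not tested. In BAT cells and cardiomyocytes the filled share remained above that of neurons. No paired analysis was possible because the lists pool the libraries, and for the same reason no library could be left out. The depth of single libraries was not used here.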
